A study of Homo sapiens with 6 samples.

Results

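RNA was compared between A549 cells that received small interfering RNAs (siRNAs) against TIMM13 and A549 cells that received a non-targeting control siRNA. A549 is an established human lung adenocarcinoma line. Per the sample titles, 2 libraries carried TIMM13 siRNA 1, 2 carried TIMM13 siRNA 2 and 2 carried the control siRNA. The genotype field reads TIMM13 knockdown for the siRNA libraries and WT for the control libraries, while the treatment field of all 6 reads cell differentiation. Dose, time after transfection and siRNA sequences are not given in the sources used here, and nothing in the labels tells separate cultures from repeat libraries of 1 culture, so a p-value covers only the spread between these libraries. The members described here are the genes whose 4 siRNA values all lay on the same side of both control values, called separated below. They numbered 3788 of 11486 genes tested, out of 19990 genes in the table.

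The TIMM13 protein works between the outer and inner mitochondrial membranes as a small chaperone. With its partner TIMM8A it shields hydrophobic precursor proteins that have passed the outer-membrane pore and hands them to insertion machinery such as the TIM22 complex of the inner membrane. An siRNA guides the cell's silencing machinery to matching mRNA, so the targeted mRNA is expected to be lower where an siRNA acts. The stated question of the study is how TIMM13 acts on proliferation.

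The deposited table gives each gene a signal whose unit is not stated and whose read depth is unknown. Column totals were 205986 to 219820 in 5 libraries and 299936 in siRNA 2 replicate 2. The median SD between replicates, on log2(signal + 1), was 0.102 for siRNA 1, 0.320 for siRNA 2 and 0.0864 for control. The library siRNA 2 replicate 2 therefore stands apart, and the medians of several gene lists below are given with and without it. All 13 mRNAs of mitochondrial DNA were listed at 0 in all 6 libraries. The keratin KRT8, an epithelial marker of A549 cells, stood at 721 to 1285 in siRNA libraries and at 703 to 787 in control libraries, whereas the lung lineage markers SFTPA1, SFTPB, SFTPC and NKX2-1 were at or near 0 in all 6. Of 16 markers of leukocytes, endothelium, fibroblasts and red cells, 13 were under 1 in every library and the T cell marker CD3E was at 0. Their summed signal was 10.4 to 20.1 in siRNA libraries and 6.68 to 7.82 in control libraries, most of it from CD14, ACTA2 and COL1A1. The part of this difference in the results below was not tested.

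TIMM13 mRNA was not detectably lower in the siRNA libraries. TIMM13 stood at 2.09 and 1.83 with siRNA 1, at 1.82 and 2.31 with siRNA 2, and at 2.09 and 2.56 in control. The groups overlapped, and the lowest library held 0.712 of the highest. The mean was 2.01 ± 0.233 in the siRNA libraries and 2.32 ± 0.332 in control (SD, n = 4 and 2), and the exact permutation test was two-sided with p = 0.4, where 0.133 is the smallest that 4 against 2 values allow. The log2 fold change, on log2(signal + 1), was −0.14 (SE 0.145, 95% interval −0.52 to 0.24, limma Benjamini-Hochberg adjusted p = 0.595). TIMM13 lies on chromosome 19 at 2425624 to 2427894 of GRCh38, on the minus strand, and shares 257 nt with LMNB2. The directions below are those of libraries labelled with an siRNA, whose loss of TIMM13 mRNA these data do not show.

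A gene was called when limma, fitted with 1 term per group over all 6 libraries, gave a Benjamini-Hochberg adjusted p under 0.05 for the mean of both siRNAs against control. By this rule 137 genes were called (1.19% of those tested), 83 higher (0.723%) and 54 lower (0.47%). Separation was far more common: 3788 genes (33.0%) had groups that did not overlap, 2097 higher (18.3%) and 1691 lower (14.7%) in the siRNA libraries. Because separation uses the values of this contrast, its counts are a description. Both criteria were met by 128 genes (1.11%), 80 higher (0.697%) and 48 lower (0.418%), and 9 called genes had overlapping groups. For 18 of the 128, siRNA 1 and siRNA 2 differed from each other by the same test. With each siRNA tested alone against control, 69 of the 128 were called with both. Another 16 were called with siRNA 1 only and 43 with siRNA 2 only. Over all tested genes, siRNA 1 alone called 187 (1.63%) and siRNA 2 alone 345 (3.0%).

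Most separated genes were separated by little. The gap, meaning the log2 distance between the nearest siRNA value and the nearest control value, had a median of 0.221, and 964 of the 3788 genes (25.4%) had a gap under 0.1. A gap of at least 1 was found for 81 genes above control and 50 below it. Where the mean was at least 5, USP24 lay just inside the limit on the higher side, at 5.19 and 5.41 with siRNA 1, 6.84 and 9.16 with siRNA 2, and 5.19 in both control libraries. DAG1 lay just outside it, since its value of 32.1 in siRNA 2 replicate 2 was marginally below that of 32.1 in control replicate 2. On the lower side ASXL1 lay just inside, at 11.4 and 14.8 with siRNA 1, 8.69 and 16.1 with siRNA 2, and 17.4 and 16.1 in control, and CARD8 just outside, with 7.04 in both siRNA 2 replicate 2 and control replicate 2.

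**Figure D1:**
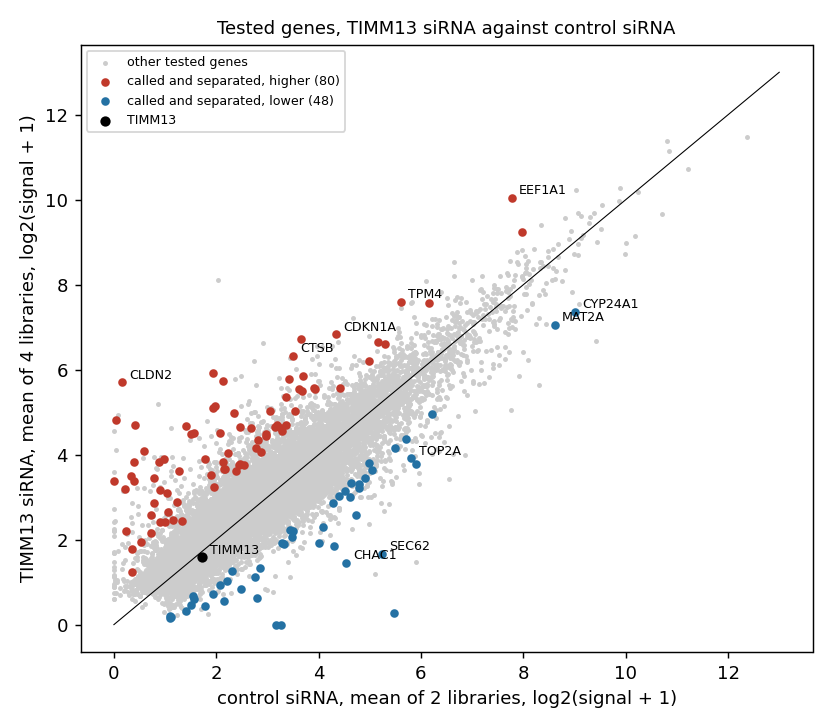
Mean log2(signal + 1) of the 4 TIMM13 siRNA libraries (vertical axis) against that of the 2 control siRNA libraries (horizontal axis) for the 11486 tested genes, each a point. Red and blue points mark the 80 higher and 48 lower genes that were both called and separated, the line marks equal means, and TIMM13 lies near the line.

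The balance of directions depended on scaling. The median log2 fold change of all tested genes was 0.09, against −0.01 once the upper quartiles of the libraries were set equal and −0.03 with equal column totals. Separated genes were higher in 55.4% of cases as deposited, in 42.9% with equal upper quartiles (1503 higher, 2002 lower) and in 40.8% with equal totals (1392 and 2019). With equal upper quartiles or equal totals, limma called 36 genes, 24 higher and 12 lower in both cases. Leaving out either siRNA 1 library or either control library left 0 genes called by limma (1260 to 1765 at an unadjusted p under 0.05). Leaving out siRNA 2 replicate 1 gave 2376 higher and 1690 lower, and leaving out replicate 2 gave 1120 and 1199. In those fits siRNA 2 is 1 library, assumed to vary like the other groups.

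The widest gap above control belonged to CLDN2, which encodes claudin 2, a tight junction protein that forms cation channels between epithelial cells. CLDN2, on chromosome X at 106900164 to 106930861, stood at 126 and 120 with siRNA 1, at 27.9 and 15.7 with siRNA 2, and at 0.113 and 0.110 in control. All 4 siRNA values lay far above both control values, and those of siRNA 1 lay above those of siRNA 2. The log2 fold change was 5.55 (SE 0.260, limma adjusted p = 0.0120), and the difference between the siRNAs was 2.50 (adjusted p = 0.0369). NRIP1, a corepressor of nuclear receptors, stood at 41.1 and 41.9 with siRNA 1, at 22.8 and 13.6 with siRNA 2, and at 0.0520 and 0.00673 in control. It was almost absent from the control libraries and rose by a log2 fold change of 4.77 (SE 0.241, limma adjusted p = 0.0136).

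TCEAL9, of the family of transcription elongation factor A-like proteins, had the opposite order of siRNAs. It stood at 46.1 and 47.3 with siRNA 1, at 68.0 and 84.0 with siRNA 2, and at 2.36 and 3.31 in control (log2 fold change 3.99, SE 0.183, limma adjusted p = 0.0120). The groups were far apart, while the difference between the siRNAs did not pass the test (adjusted p = 0.151). NXN, the redox protein nucleoredoxin, stood at 12.4 and 11.1 with siRNA 1, at 17.9 and 12.4 with siRNA 2, and at 0.969 and 0.727 in control. Its 4 siRNA values lay close together, and it rose by a log2 fold change of 2.95 (SE 0.205, limma adjusted p = 0.0252).

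The widest gaps below control included 3 genes of cell defence and stress. CHAC1, which encodes an enzyme that degrades glutathione, stood at 0.732 and 1.93 with siRNA 1, at 2.18 and 2.53 with siRNA 2, and at 24.2 and 20.1 in control. Even its highest siRNA value was far below control, and the log2 fold change was −3.07 (SE 0.266, limma adjusted p = 0.0388). MICB and ULBP1 are surface ligands of NKG2D, the receptor through which natural killer cells recognise stressed cells. MICB stood at 3.64 and 2.97 with siRNA 1, at 2.26 and 1.75 with siRNA 2, and at 18.2 and 19.2 in control (log2 fold change −2.46, SE 0.165, limma adjusted p = 0.0252). ULBP1 stood at 0.851 and 0.449 with siRNA 1, at 0.610 and 0.340 with siRNA 2, and at 6.09 and 5.82 in control (log2 fold change −2.16, SE 0.162, limma adjusted p = 0.0271). Both ligands were low in all 4 siRNA libraries. Of 11 tested immune ligands these 2 were called, 4 (36.4%) were separated below control and 2 (18.2%) above it. The shares over all tested genes were 14.7% and 18.3%.

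SEC62, part of the machinery that moves proteins into the endoplasmic reticulum, stood at 0.226 and 0.395 with siRNA 1, at 7.12 and 6.21 with siRNA 2, and at 36.4 and 36.9 in control. It fell with both siRNAs, by different amounts: the log2 fold change was −3.57 (SE 0.152, limma adjusted p = 0.0103), and siRNA 1 minus siRNA 2 was −2.55 (adjusted p = 0.0232). ID2, an inhibitor of differentiation-promoting transcription factors, stood at 10.1 and 12.7 with siRNA 1, at 11.7 and 17.4 with siRNA 2, and at 58.0 and 59.0 in control (log2 fold change −2.12, SE 0.215, limma adjusted p = 0.0425). ID2 was the 1 called member among 13 tested ID and SMAD-responsive genes. Of the 13, 5 (38.5%) were separated below control and 1 (7.69%) above, beside 14.7% and 18.3% over all tested genes.

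**Figure D2:**
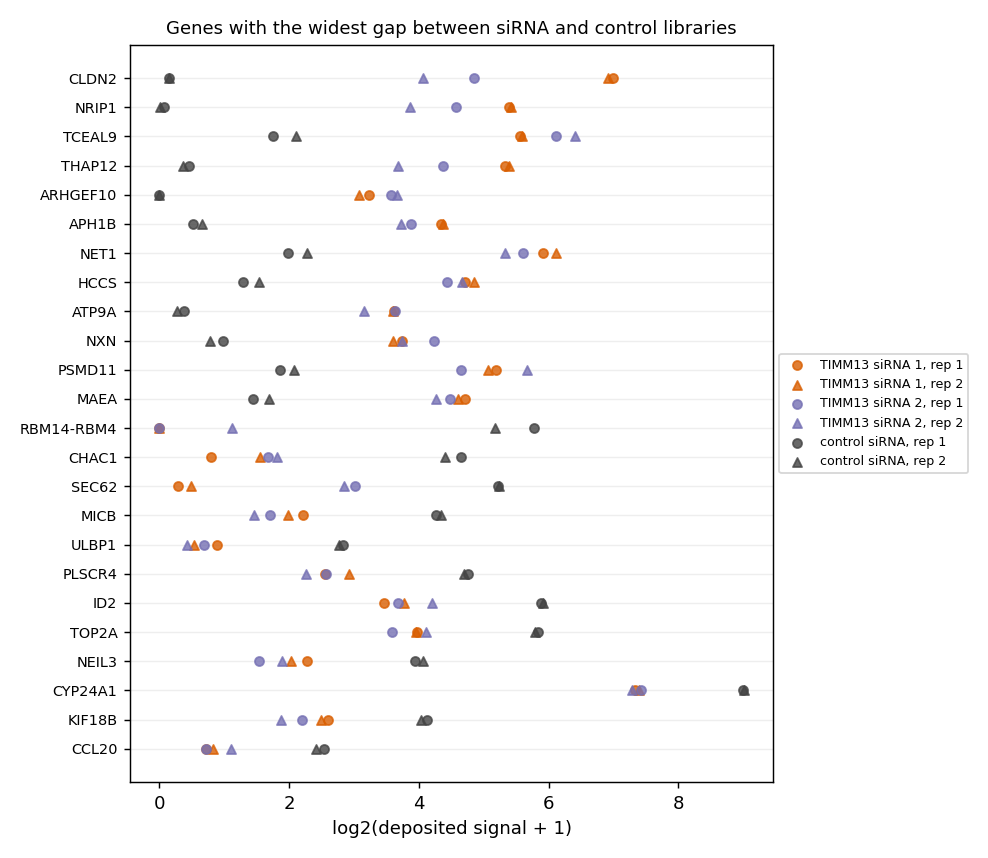
Log2(signal + 1) in each of the 6 libraries for the 12 genes with the widest gap above control and the 12 with the widest gap below it, among genes called and separated. Colour gives the siRNA and shape the replicate, with TIMM13 siRNA libraries in orange and purple and control libraries in grey. No siRNA point overlaps a control point in any of these genes.

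Among the 771 genes with a mean signal of at least 50, where a pseudocount matters least, 11 were called and separated above control and 2 below. TMEM123, which encodes the surface protein porimin, stood at 149 and 159 with siRNA 1, at 88.2 and 57.2 with siRNA 2, and at 12.6 and 10.8 in control (log2 fold change 3.06, SE 0.225, limma adjusted p = 0.0271). TPM4, an actin-binding tropomyosin, stood at 212 and 188 with siRNA 1, at 203 and 173 with siRNA 2, and at 42.1 and 54.2 in control (log2 fold change 2.00, SE 0.185, limma adjusted p = 0.0388). TPM4 was close to level among the 4 siRNA libraries, whereas TMEM123 had its higher values in the siRNA 1 libraries. EEF1A1, which delivers transfer RNAs to the ribosome, stood at 957 and 909 with siRNA 1, at 904 and 1605 with siRNA 2, and at 214 and 223 in control. It rose by a log2 fold change of 2.27 (SE 0.273, limma adjusted p = 0.0490), an uncertain value because EEF1A1 has near-identical processed copies in the genome that can share its reads.

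The 2 abundant genes below control were enzymes. CYP24A1, the hydroxylase that inactivates vitamin D, stood at 161 and 167 with siRNA 1, at 171 and 155 with siRNA 2, and at 509 and 515 in control. The 4 siRNA values lay close together, and the log2 fold change was −1.65 (SE 0.139, limma adjusted p = 0.0388). MAT2A, which makes the methyl donor S-adenosylmethionine, stood at 121 and 119 with siRNA 1, at 131 and 162 with siRNA 2, and at 387 and 394 in control (log2 fold change −1.56, SE 0.157, limma adjusted p = 0.0425). CTSB, a lysosomal protease, was among the abundant genes above control, at 89.5 and 88.5 with siRNA 1, 54.9 and 89.6 with siRNA 2, and 11.1 and 9.60 in control (log2 fold change 2.82, SE 0.240, limma adjusted p = 0.0388). OPN3, an opsin found outside the eye, stood at 84.0 and 85.5 with siRNA 1, at 130 and 102 with siRNA 2, and at 33.5 and 36.2 in control (log2 fold change 1.48, SE 0.164, limma adjusted p = 0.0462).

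The direction of separation differed with the number of transcripts annotated for a gene in GENCODE release 29. Of 661 tested genes with 1 annotated transcript, 14.5% were separated above control and 22.2% below it. Of 1787 genes with 16 or more, 22.4% were above and 8.0% below. The median log2 fold change was −0.10 in the first class and 0.24 in the second. The sources used here do not give how the signals of a gene's transcripts were combined, so a change in a gene with several transcripts cannot be told apart from a change of transcript.

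**Figure D3:**
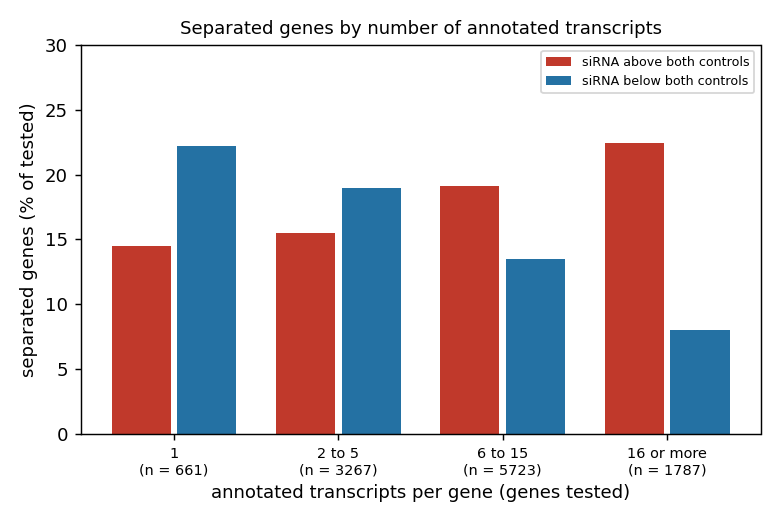
Share of tested genes whose 4 TIMM13 siRNA values all lay above both control values (red) or below both (blue), in percent, by number of annotated transcripts per gene. The blue share goes from 22.2% in genes with 1 transcript to 8.0% in genes with 16 or more, and the red share from 14.5% to 22.4%.

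Genes with 1 annotated transcript have no other annotated transcript to change to. Whether their signal came from that transcript alone is not known, because how the table was made is not given. OVCA2, a serine hydrolase family member, stood at 24.0 and 30.8 with siRNA 1, at 51.1 and 32.4 with siRNA 2, and at 3.61 and 2.21 in control (log2 fold change 3.15, SE 0.286, limma adjusted p = 0.0388). ME1, the cytosolic malic enzyme that yields NADPH, stood at 82.2 and 89.4 with siRNA 1, at 60.1 and 65.1 with siRNA 2, and at 31.1 and 30.5 in control (log2 fold change 1.22, SE 0.135, limma adjusted p = 0.0462). Both were called and separated, as was ULBP1 on the lower side. SDHAF1, an assembly factor of succinate dehydrogenase, stood at 25.9 and 24.2 with siRNA 1, at 28.1 and 13.7 with siRNA 2, and at 6.86 and 6.47 in control (limma adjusted p = 0.0821). JUNB, a subunit of the AP-1 transcription factor, stood at 110 and 108 with siRNA 1, at 84.3 and 50.4 with siRNA 2, and at 256 and 252 in control (limma adjusted p = 0.0607). HTR1D, a serotonin receptor, stood at 6.83 and 7.71 with siRNA 1, at 4.14 and 2.30 with siRNA 2, and at 18.8 and 18.6 in control (limma adjusted p = 0.0522). The groups of these last 3 genes did not overlap, and none was called.

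Genes of cell division lay mostly below control. The list of G2/M and mitosis genes had 54 tested members, of which 3 were called lower and 0 higher, 21 (38.9%) were separated below control and 0 above it, and the median log2 fold change was −0.44, beside 14.7% below, 18.3% above and 0.09 over all tested genes. TOP2A, the topoisomerase that untangles sister DNA, stood at 14.7 and 14.6 with siRNA 1, at 10.996 and 16.4 with siRNA 2, and at 55.9 and 54.5 in control (log2 fold change −1.90, SE 0.198, limma adjusted p = 0.0427). ANLN, a scaffold of the cleavage furrow, stood at 5.79 and 6.65 with siRNA 1, at 9.81 and 12.2 with siRNA 2, and at 26.3 and 26.7 in control (log2 fold change −1.57, SE 0.162, limma adjusted p = 0.0425). KIF18B, a kinesin of astral microtubules, stood at 5.05 and 4.64 with siRNA 1, at 3.57 and 2.66 with siRNA 2, and at 16.4 and 15.3 in control (log2 fold change −1.79, SE 0.167, limma adjusted p = 0.0388). In these 3 genes every siRNA value lay well below both control values. CDC25B, a phosphatase that activates mitotic kinases, stood at 38.2 and 36.8 with siRNA 1, at 55.6 and 60.9 with siRNA 2, and at 93.7 and 94.4 in control, and was not called (limma adjusted p = 0.0534).

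The other separated members included the mitotic kinases CDK1, PLK1 and NEK2, the proliferation marker MKI67, the transcription factor FOXM1 and the kinesins KIF11 and KIF20A. The list did not lie lower in all libraries: its median against the control mean was −0.51 and −0.47 with siRNA 1, −0.64 in siRNA 2 replicate 1 and 0.06 in siRNA 2 replicate 2. Without siRNA 2 replicate 2 the median was −0.65, beside 0.03 over all genes, and 38 of the 54 genes were separated below control, a count that leaving out a library can only raise or keep. Over all tested genes, 2218 of 11486 were below control without that library. With equal upper quartiles 26 list genes were below and their median was −0.56, beside 2002 of 11486 below over all genes. In bulk RNA, fewer cells in mitosis and less of these mRNAs per cell cannot be told apart.

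Many promoters of G2/M genes carry the CHR, an element read here as TTTGAA on either strand. Of the 46 list members with a RefSeq promoter (250 bases before to 50 after the start, build GRCh38.p14), 69.6% held it, against 9.18% of 9300 promoters of tested genes. Among the 20 separated members with a promoter the share was 70.0%, so separated members carried it about as often as the list. TOP2A and ANLN are shown because both were called and each holds a pair of CHR matches, given in capitals. The stretches are chr17:40417951-40418096 on the minus strand and chr7:36389827-36389856 on the plus strand, written 5′ to 3′ along the gene, and the ANLN stretch lies in the first exon of a longer GENCODE transcript.
TOP2A: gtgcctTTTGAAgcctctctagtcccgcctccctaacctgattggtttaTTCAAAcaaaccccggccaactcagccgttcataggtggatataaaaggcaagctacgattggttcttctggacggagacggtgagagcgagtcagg
ANLN: gcgctgaaaTTCAAATTTGAAcggctgcag
Counted from the RefSeq start, the matches of TOP2A begin at −194 and −151 and those of ANLN at −26 and −20. A match is a description of the letters. Over the called and separated genes of any function the CHR was about as common as in all promoters, in 10.6% of 66 promoters above control and 11.1% of 36 below.

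Of 46 tested DNA replication and G1/S genes, 1 was called lower, 9 (19.6%) were separated below control and 3 (6.52%) above it. Over all tested genes 14.7% were below and 18.3% above, with a median of 0.09. The list's median was −0.16. Without siRNA 2 replicate 2 the median was −0.21, and 16 were separated below control, beside 2218 of all 11486 tested genes. UHRF1, which guides maintenance DNA methylation, was the called member, at 3.06 and 2.65 with siRNA 1, 4.75 and 4.68 with siRNA 2, and 9.43 and 10.5 in control (log2 fold change −1.22, SE 0.145, limma adjusted p = 0.0490). E2F8, a repressor of the E2F family, stood at 0.614 and 0.696 with siRNA 1, at 0.796 and 0.803 with siRNA 2, and at 2.06 and 1.67 in control, and was separated and not called (limma adjusted p = 0.0580).

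CDKN1A, which encodes the cyclin-dependent kinase inhibitor p21, rose. It stood at 206 and 167 with siRNA 1, at 83.3 and 55.9 with siRNA 2, and at 17.6 and 21.2 in control. All siRNA values lay above control, and the values with siRNA 1 were the higher ones (log2 fold change 2.48, SE 0.234, limma adjusted p = 0.0388; difference between the siRNAs 1.43, adjusted p = 0.0682). Of 25 tested p53 targets CDKN1A alone was called, and the median was −0.04. Separated above control were 4, namely CDKN1A, MDM2, BAX and FDXR. Below it were 5, namely PPM1D, RRM2B, SERTAD1, TP53INP1 and ZMAT3. Over all tested genes 18.3% were above and 14.7% below. PPM1D, a phosphatase that p53 induces and that restrains it, stood at 5.06 and 4.68 with siRNA 1, at 4.86 and 3.58 with siRNA 2, and at 11.2 and 9.73 in control, separated below control and not called (limma adjusted p = 0.0671). Of 18 G1 cyclins, kinases and inhibitors, CDKN1A alone was called. Of these 18, 2 (11.1%) were separated above control and 3 (16.7%) below, beside 18.3% and 14.7% over all tested genes. In this list 14 genes had a negative log2 fold change, and the median was −0.28. CCND1, the G1 cyclin D1, stood at 93.3 and 89.2 with siRNA 1, at 88.5 and 55.1 with siRNA 2, and at 185 and 184 in control, and was not called (limma adjusted p = 0.0821).

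The integrated stress response raises amino acid synthesis and transport through the transcription factor ATF4, and CHAC1 is one of its targets. Of 36 tested genes of this list, 2 were called lower, 13 (36.1%) were separated below control and 0 above it. Over all tested genes 0.47% were called lower, 14.7% were separated below and 18.3% above, with a median of 0.09. The list's median was −0.45. The separated members included the transporters SLC7A11, SLC1A4 and SLC7A1, the serine and proline synthesis enzymes PSAT1, PSPH and PYCR1, and the cytokine GDF15. ADM2, a peptide hormone, was called beside CHAC1, at 0.0459 and 0.101 with siRNA 1, 0.246 and 0.211 with siRNA 2, and 1.27 and 1.04 in control (log2 fold change −0.91, SE 0.0930, limma adjusted p = 0.0425). SLC7A11, the cystine transporter that feeds glutathione synthesis, stood at 19.0 and 19.0 with siRNA 1, at 39.8 and 24.4 with siRNA 2, and at 95.7 and 89.4 in control. It was separated and missed the threshold (log2 fold change −1.88, SE 0.233, limma adjusted p = 0.0518). SLC1A4, a transporter of neutral amino acids, stood at 3.76 and 3.65 with siRNA 1, at 2.82 and 1.88 with siRNA 2, and at 11.5 and 9.23 in control (limma adjusted p = 0.0522).

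The list's median was negative in each siRNA library, at −0.37 and −0.27 with siRNA 1 and −0.49 and −0.08 with siRNA 2. ATF4 dimers bind CARE sequences, read here as TGATGNAA on either strand. This was present in 23.3% of the 30 list promoters, against 1.56% of all promoters, and in 22.2% of the 9 separated members' promoters. CHAC1 is shown because it had the widest gap of the list. Its match, in capitals on the reverse strand of chr15:40953251-40953280 (GRCh38.p14, plus-strand sequence), begins at −209 from the RefSeq start, inside an exon of longer GENCODE transcripts.
CHAC1: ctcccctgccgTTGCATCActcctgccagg

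Of 13 tested cytosolic heat shock genes, 1 was called higher, 8 (61.5%) were separated above control, 0 below it and 5 overlapped it. Over all tested genes 0.723% were called higher, 18.3% were separated above and 14.7% below, with a median of 0.09. The list's median was 0.64. HSP90AA1, the inducible form of HSP90, stood at 448 and 463 with siRNA 1, at 769 and 817 with siRNA 2, and at 251 in both control libraries (log2 fold change 1.26, SE 0.137, limma adjusted p = 0.0462). DNAJA1, a co-chaperone of HSP70, stood at 85.0 and 87.6 with siRNA 1, at 142 and 182 with siRNA 2, and at 47.1 and 46.2 in control, just short of the threshold (limma adjusted p = 0.0521). HSPA1B, a stress-inducible HSP70, stood at 115 and 102 with siRNA 1, at 76.4 and 42.8 with siRNA 2, and at 24.0 and 26.0 in control (limma adjusted p = 0.0667). HSPA1B has 1 transcript but a near-identical copy, HSPA1A, so the split of reads between them is uncertain. The list's median was 0.58 and 0.64 with siRNA 1, 0.49 in siRNA 2 replicate 1 and 1.47 in replicate 2. Without siRNA 2 replicate 2 it was 0.38.

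Heat shock factor 1 binds paired GAA units, read here as GAANNTTC, a motif added after the values were seen. It was found in 41.7% of the 12 heat shock promoters, against 4.47% of all promoters. HSPA1B is shown because it is the stress-inducible member named here. The stretch is chr6:31827578-31827697 (GRCh38.p14, plus strand), and the match in capitals begins at −105 from the start.
HSPA1B: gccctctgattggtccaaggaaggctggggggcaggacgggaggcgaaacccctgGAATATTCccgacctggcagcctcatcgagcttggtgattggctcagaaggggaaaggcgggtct

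Of 16 mitochondrial chaperones and proteases, 0 were called, 9 (56.2%) were separated above control and 1 (6.25%) below it. Over all tested genes 18.3% were above and 14.7% below, with a median of 0.09. The list's median was 0.68. LONP1, a protease of the mitochondrial matrix, stood at 14.6 and 16.7 with siRNA 1, at 15.7 and 32.1 with siRNA 2, and at 5.80 and 5.27 in control (log2 fold change 1.60, SE 0.316, limma adjusted p = 0.0839). HSPD1, the chaperonin HSP60, stood at 295 and 315 with siRNA 1, at 200 and 298 with siRNA 2, and at 103 and 44.4 in control, where the replicates themselves differed widely (limma adjusted p = 0.0876). The list's median was 0.26 and 0.44 with siRNA 1, 0.21 in siRNA 2 replicate 1 and 1.56 in replicate 2. Without replicate 2 of siRNA 2 it was 0.29.

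**Figure D4:**
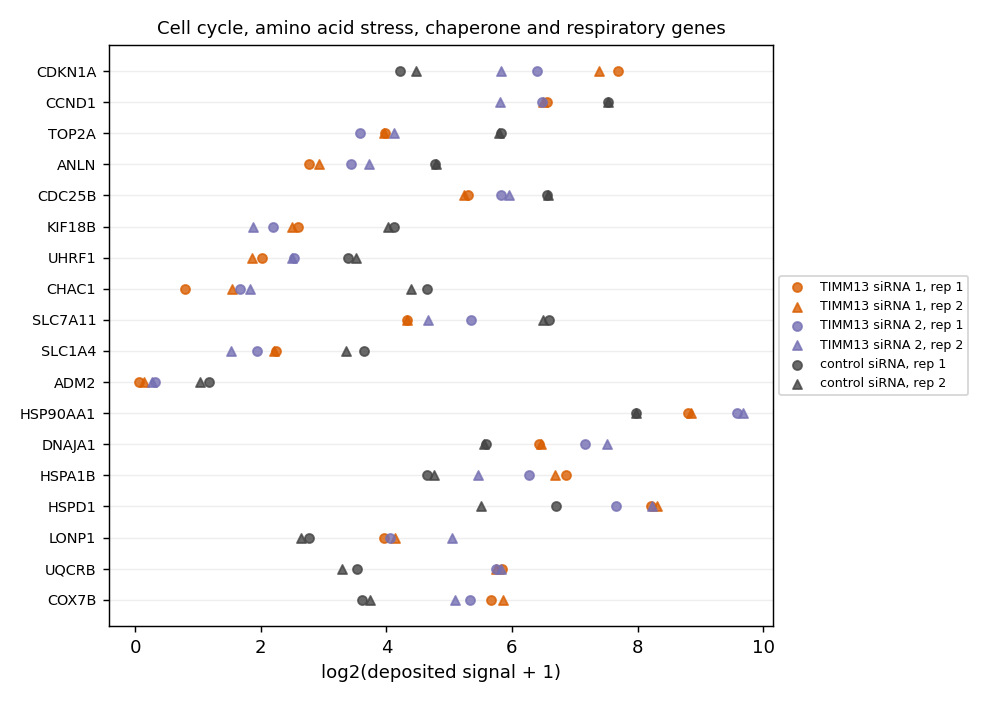
Log2(signal + 1) in each of the 6 libraries for 18 genes of the cell cycle, the amino acid stress response, chaperones and the respiratory chain, with TIMM13 siRNA libraries in orange and purple and control libraries in grey. CDKN1A and the plotted chaperone and respiratory genes lie above control, and the plotted CCND1, G2/M, UHRF1 and amino acid stress genes lie below it.

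The import machinery around TIMM13 held 1 called gene. Of 9 tested small TIM and TIM22 genes, 0 were called, 2 (22.2%) were separated above control and 0 below it. TIMM8A, the partner of TIMM13, was one of these, at 10.2 and 5.49 with siRNA 1, 4.83 and 6.73 with siRNA 2, and 2.50 and 2.77 in control, and was not called (log2 fold change 1.06, SE 0.285, limma adjusted p = 0.129). In the outer-membrane pore, 3 of 10 tested genes were separated above control. TOMM22, its central receptor, rose, at 14.2 and 16.7 with siRNA 1, 33.8 and 25.6 with siRNA 2, and 6.84 and 6.85 in control (log2 fold change 1.51, SE 0.181, limma adjusted p = 0.0490). TOMM40L, a paralog of the pore protein, stood at 4.37 and 5.57 with siRNA 1, at 5.54 and 4.28 with siRNA 2, and at 1.13 and 1.57 in control (limma adjusted p = 0.0553). Of 12 TIM23 and motor genes, 1 was separated in each direction (8.33%), and of 11 intermembrane-space and MICOS genes, 2 above (18.2%) and 1 below (9.09%). The shares over all tested genes were 18.3% above and 14.7% below.

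In the nuclear-encoded respiratory chain, 2 genes were called and both rose. UQCRB, a subunit of complex III, stood at 56.1 and 52.7 with siRNA 1, at 52.6 and 55.7 with siRNA 2, and at 10.6 and 8.80 in control (log2 fold change 2.37, SE 0.146, limma adjusted p = 0.0211). COX7B, a subunit of complex IV, stood at 49.9 and 56.8 with siRNA 1, at 39.5 and 33.1 with siRNA 2, and at 11.2 and 12.3 in control (log2 fold change 1.82, SE 0.156, limma adjusted p = 0.0388). UQCRB was level across the 4 siRNA libraries. SDHC, a membrane anchor of complex II, was separated by a smaller step, at 75.1 and 76.1 with siRNA 1, 82.5 and 79.3 with siRNA 2, and 49.0 and 48.5 in control (log2 fold change 0.67, SE 0.128, limma adjusted p = 0.0797).

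Among the 39 genes of complexes II to V, 12 (30.8%) were separated above control and 1 below, with a median of 0.66. Of 36 complex I genes, 7 (19.4%) were above, close to the 18.3% over all tested genes, and 0 below, with a median of 0.46. These medians rested on siRNA 2 replicate 2, where they were 1.64 and 1.91, against 0.06 and 0.04 in siRNA 2 replicate 1. Without replicate 2 of siRNA 2 the medians were 0.14 and 0.06. In that setting 14 genes of complexes II to V were above control and 6 below, and 7 and 2 of complex I. Over all 11486 tested genes it was 2746 and 2218. The medians of proteasome subunits and cytosolic ribosomal proteins also rested on siRNA 2 replicate 2. They were 0.62 and 0.65 over all libraries and 0.12 and 0.05 without it. Of 31 proteasome subunits, 9 were separated above control, 0 below, and 1 was called higher. Of 75 cytosolic ribosomal proteins, 5 (6.67%) were above, 1 (1.33%) below and 0 called. Both shares of the ribosomal proteins were under those over all tested genes, 18.3% above and 14.7% below. Of 73 genes of the mitochondrial ribosome, 0 were called, 26 (35.6%) were separated above control and 3 below, and the median was 0.45. By library it was 0.25 and 0.27 with siRNA 1, 0.25 in siRNA 2 replicate 1 and 0.78 in replicate 2, and without that last library it was 0.19. With equal upper quartiles the mitochondrial ribosome had 19 above and 6 below, with a median of 0.33. Over all 11486 tested genes 1503 were above and 2002 below in that setting.

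**Figure D5:**
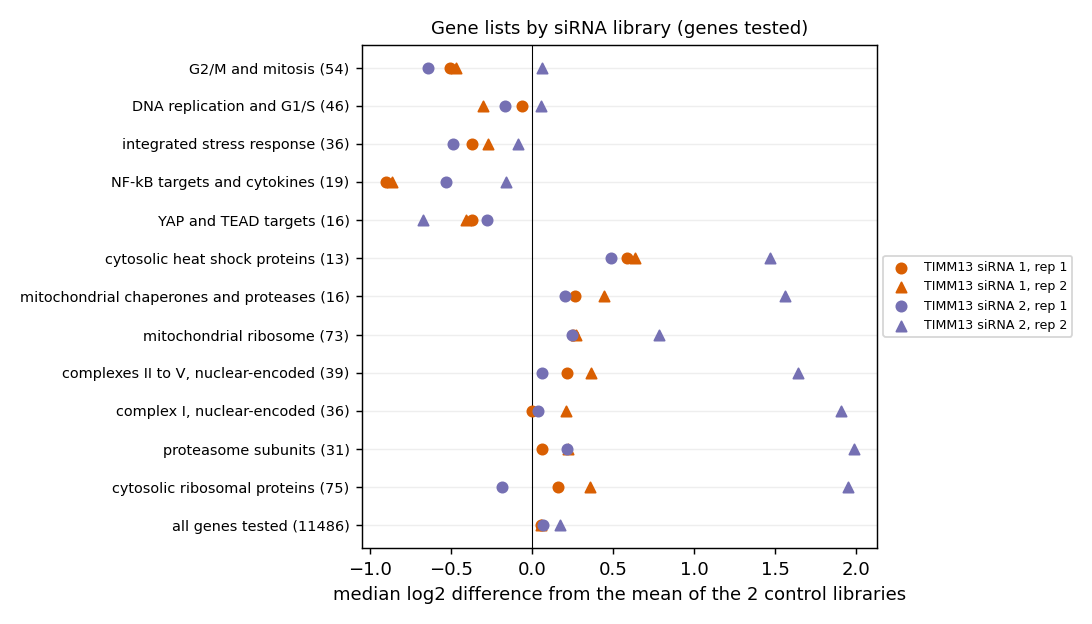
Median log2 difference from the mean of the 2 control siRNA libraries in each TIMM13 siRNA library, for 12 gene lists and for all tested genes. Cell division, amino acid stress, NF-kB and YAP lists lie left of 0 in most libraries, and siRNA 2 replicate 2 (purple triangles) lies apart for the lists of mitochondrial, proteasome and ribosome genes.

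Of 19 tested NF-kB targets and cytokines, 2 were called lower, 8 (42.1%) were separated below control and 1 (5.26%) above it. Over all tested genes 0.47% were called lower, 14.7% were separated below and 18.3% above, with a median of 0.09. The list's median was −0.44. CCL20, a chemokine for lymphocytes and dendritic cells, stood at 0.638 and 0.775 with siRNA 1, at 0.652 and 1.14 with siRNA 2, and at 4.81 and 4.34 in control (log2 fold change −1.64, SE 0.155, limma adjusted p = 0.0388). TNFAIP3, the feedback inhibitor A20, stood at 0.943 and 0.997 with siRNA 1, at 2.62 and 1.95 with siRNA 2, and at 6.62 and 5.84 in control (log2 fold change −1.51, SE 0.151, limma adjusted p = 0.0425). Both fell, and neither had an siRNA value near control. The members separated below control also included the chemokines CXCL8 and CXCL2 and RELB, which encodes an NF-kB subunit. NFKB1, which encodes another subunit, was the 1 above control. An NF-kB site, read as GGGA, any 2 bases and TTCC on either strand, was found in 46.7% of 15 list promoters, against 1.48% of all promoters, and in 42.9% of the 7 separated members' promoters. The match of TNFAIP3, the called member that holds one, is in capitals in chr6:137867182-137867211 (GRCh38.p14, plus strand), and begins at −67 from the RefSeq start, within the first exon of a longer GENCODE transcript.
TNFAIP3: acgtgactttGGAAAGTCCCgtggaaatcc

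YAP and TEAD are transcriptional partners that report on cell spreading and contact. Of 16 tested genes listed as targets or regulators, 0 were called, 9 (56.2%) were separated below control and 3 (18.8%) above it. The shares over all tested genes were 14.7% below and 18.3% above. The list's median was −0.49 as deposited and −0.37 without siRNA 2 replicate 2. The list's counts were the same with equal upper quartiles, where 2002 of all 11486 tested genes were below and 1503 above. The members below included CCN1, CCN2 and AXL and the regulators TEAD1 and WWTR1, and those above included YAP1 itself. AJUBA, a LIM protein of adhesion sites, stood at 16.4 and 15.3 with siRNA 1, at 22.4 and 15.4 with siRNA 2, and at 33.4 and 35.4 in control (limma adjusted p = 0.0868).

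Genes of adhesion and matrix went both ways. LOXL2, which crosslinks collagen, fell, at 35.9 and 32.7 with siRNA 1, 24.9 and 28.6 with siRNA 2, and 73.9 and 72.1 in control (log2 fold change −1.24, SE 0.142, limma adjusted p = 0.0469). NRCAM, an adhesion molecule, was called lower although its groups overlapped: it stood at 97.5 and 104 with siRNA 1, at 10.6 and 11.1 with siRNA 2, and at 75.7 and 75.4 in control. Its siRNA 1 values lay above control and its siRNA 2 values below, and siRNA 1 minus siRNA 2 was 3.10 (limma adjusted p = 0.0157). EPCAM, an epithelial surface protein, stood at 4.77 and 5.70 with siRNA 1, at 4.59 and 6.53 with siRNA 2, and at 1.63 and 2.17 in control, separated and not called (limma adjusted p = 0.0719). Of 24 adhesion and mesenchymal genes, 3 were separated above control, namely EPCAM, the cadherin CDH1 and the vimentin gene VIM. Below control were 6, among them the transcription factors SNAI2 and ZEB1. Over all tested genes 18.3% were above and 14.7% below. Of 19 collagens and laminins, 5 were above, among them COL5A2, and 3 below, among them NID1, and 0 were called.

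The remaining lists held few called genes. Their separated shares stand beside 18.3% above control and 14.7% below it over all tested genes. Interferon response genes numbered 21 tested, with 1 above (4.76%), 2 below (9.52%) and 0 called. The RNA interference machinery had 12, with 1 in each direction (8.33%) and 0 called. Of 32 NRF2 targets and antioxidant enzymes, 3 were above (9.38%) and 7 below (21.9%), with ME1 called. Of 22 endoplasmic reticulum chaperones, 6 were above (27.3%) and 2 below (9.09%), and of 25 cholesterol and fatty acid genes 7 (28.0%) and 1 (4.0%). Of 27 glycolysis and hypoxia genes, 3 were above (11.1%) and 4 below (14.8%). In each of these lists 0 were called. Of 35 lysosome and autophagy genes, 10 were above (28.6%) and 3 below (8.57%), with CTSB called, and of 22 tricarboxylic acid cycle genes 8 (36.4%) and 0. The medians of these last lists were 0.30 and 0.48, and 0.08 and 0.26 without siRNA 2 replicate 2. Of 12 claudins and tight junction genes, 2 were above and 1 below, with CLDN2 called. Of 10 tested A549 markers, 5 were above, among them KRT18 and KRT19, and 1, AKR1B10, below.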

How the data were processed

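Poly(A)-selected, strand-specific libraries of 6 A549 samples were compared. The deposited table holds a fractional signal per gene. Its unit, whether the authors scaled it to depth or length, and how it was made are not given in the sources used here, and it was used without further scaling. Trim Galore, STAR, featureCounts and hg38 appear in the submitters' processing notes. No read counts were recovered, so depth is unknown, the planned count tests were not run, and no counting interval is given.

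Genes that reached a signal of 1 in 2 or more libraries (11486 of 19990) were used as log2(signal + 1). limma 3.58.1 (R 4.3.3; eBayes with trend and robust) was fitted with 1 term per group, leaving 3 residual degrees of freedom, for the mean of both siRNAs minus control. Adjusted p-values are Benjamini-Hochberg over all 11486 genes. Fold changes on this scale understate those of low genes. The script was tested on simulated data.

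The separated genes and the 34 gene lists were chosen with earlier results of these data known. Lists are described by counts and medians, with no set test. Named genes, leaving out clone-style, long non-coding and pseudogene names, are TIMM13, the 12 widest gaps per direction among called and separated genes, the 6 widest with a mean of at least 50, the 6 widest separated genes with 1 transcript and a mean of at least 5, and up to 4 per list with the smallest p. Not all are described. Genes named without values, USP24, DAG1, ASXL1 and CARD8 (nearest to the limit), marker genes and those under other observations were taken outside this rule, the last after their values were seen. Positions and transcript numbers come from GENCODE 29 (GRCh38, the assembly of hg38), with 99.1% of symbols matched, and promoters from RefSeq (GRCh38.p14). Alternatives covered the pseudocount, filters, scaling, model terms, library weights and each library left out. The labels do not say whether equal replicate numbers pair the samples, and the main fit treated the libraries as unpaired.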

Additional observations from a re-analysis of the deposited data

Results flagged for a closer look

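In 65 sets of 4 siRNA values, 7 had 1 library far from the other 3 by Dixon's criterion, where chance gives about 1 in 20. In 6 of the 7 this library was siRNA 2 replicate 2. Its column total was 299900, its EEF1A1 signal 1605, its LONP1 signal 32.08 and its CCND1 signal 55.07, the last far below the other 3. Its median log2 difference from control was 1.471 for cytosolic heat shock genes and 0.7825 for the mitochondrial ribosome. The seventh was AJUBA, at 22.4 in siRNA 2 replicate 1.

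Of 58 genes described above and checked for a difference between the siRNAs, 3 passed in limma with an adjusted p under 0.05. The 58 leave out FOSL1, SRSF2 and RNPS1, given under other observations, which also passed. Among all 128 called and separated genes, 18 passed. The log2 fold change of siRNA 1 minus that of siRNA 2 was 2.497 for CLDN2, −2.549 for SEC62 and 3.098 for NRCAM.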

How the results depend on the processing

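The number of called genes, 137 as reported, depended on most settings. It was 36 with equal column totals and 36 with equal upper quartiles, 43 with no filter on low values, 33 with the 4 siRNA libraries as 1 group, 791 with library weights, and 67 among the 661 genes with 1 transcript tested alone. Equal upper quartiles with 1 siRNA group, added after the data were seen, gave 28, and 1 siRNA group without siRNA 2 replicate 2, also added, gave 103. Leaving out 1 library gave 0 to 4066. It was 120 with a pseudocount of 0.1, 118 with a mean of at least 5 and 190 without trend and robust. The cause of these differences was not tested. Of the 137, 36 were also called with equal upper quartiles and 33 with 1 siRNA group.

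With the replicate number as a block limma called 0 genes (2287 at an unadjusted p under 0.05). Replicate deviations correlated at 0.00136, −0.00332 and 0.0459 between groups, so no shift shared by equal replicate numbers was seen across genes. These correlations cannot show whether equal numbers share a culture or day, which the labels do not give.

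Separated genes numbered 3788, or 2432 of the 7316 with a mean of at least 5 and 243 of the 661 with 1 transcript, where fewer genes were tested. Leaving out 1 library, which can only raise or keep the count, gave 4364 to 5213. TIMM13 was not called in any run that tested it (log2 fold change −0.25 to −0.04). Of 57 other genes described, 31 of them called, all 31 lost the call with the replicate block and without either siRNA 1 or either control library. With 1 siRNA group, equal totals or no filter 20 lost it, and with equal upper quartiles 19. None changed direction in an alternative that tested it. Each list median given above kept its sign with equal upper quartiles.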

Other observations

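Several genes outside the lists were called and separated, and are given as values chosen after they were seen. EGR2, an immediate-early transcription factor, stood at 0.955 and 0.842 with siRNA 1, at 0.0678 and 0.187 with siRNA 2, and at 3.67 and 3.27 in control (log2 fold change −1.61, SE 0.112, limma adjusted p = 0.0252). FOSL1, an AP-1 subunit, stood at 19.1 and 16.7 with siRNA 1, at 4.72 and 3.76 with siRNA 2, and at 26.3 and 26.7 in control (log2 fold change −1.47, SE 0.159, limma adjusted p = 0.0462). It was below control with both siRNAs and lower with siRNA 2 (adjusted p of the difference 0.0322). GADD45B, a stress-response gene, stood at 18.4 and 15.1 with siRNA 1, at 23.0 and 24.0 with siRNA 2, and at 51.5 and 51.6 in control (limma adjusted p = 0.0462). CYP27B1, which makes active vitamin D, fell beside CYP24A1, which inactivates it, at 1.22 and 1.39 with siRNA 1, 0.827 and 0.771 with siRNA 2, and 3.33 and 3.97 in control (limma adjusted p = 0.0425).

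The splicing factors SRSF2 and RNPS1 were called higher, mostly through siRNA 2. SRSF2 stood at 14.6 and 14.3 with siRNA 1, at 137 and 142 with siRNA 2, and at 11.9 and 10.8 in control (limma adjusted p = 0.0252, and 0.0157 for the difference between the siRNAs). RNPS1 stood at 9.24 and 7.99 with siRNA 1, at 48.0 and 59.1 with siRNA 2, and at 2.85 and 3.60 in control (limma adjusted p = 0.0271, and 0.0284 for the difference). CCNT1, the cyclin of the elongation factor P-TEFb, stood at 6.29 and 5.94 with siRNA 1, at 13.5 and 8.50 with siRNA 2, and at 0.191 and 0.149 in control (limma adjusted p = 0.0269). MTFP1, a protein of mitochondrial fission, stood at 15.6 and 15.6 with siRNA 1, at 13.2 and 11.9 with siRNA 2, and at 1.61 and 0.485 in control (limma adjusted p = 0.0388). All 4 siRNA values lay above both control values in each of these.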
